A study of Mus musculus with 8 samples.

Results

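Sebaceous gland and duct markers were followed as a set of 9 genes, Krt79, Fa2h, Mgst1, Scd1, Scd3, Mc5r, Pparg, Cidea and Dgat2. Members were all probes whose gene symbol is 1 of these names, 12 of the 25697 probes on the array. Of these 12 probes, 9 passed the detection filter (a detection p under 0.05 on at least 2 of 8 arrays), against 13131 probes of 9343 genes in the whole data set. The 9 tested probes cover 8 of the 9 genes, since the only Scd3 probe was above background on 0 of 8 arrays. Mgst1 has 2 tested probes, named here Mgst1-a (ILMN_2669416) and Mgst1-b (ILMN_2940195), and Pparg has 3 probes, of which only ILMN_1221060 was tested.

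Epidermal RNA was hybridized to 8 Illumina MouseRef-8 v2.0 BeadChips, 2 for each of 4 groups of female mice aged 7 wk. Wild-type and REDD1 KO mice were each given vehicle or FA, and each array carried the RNA of 1 animal. FA, the synthetic glucocorticoid fluocinolone acetonide, was applied to the skin at 2 µg per animal in acetone, controls received acetone, and the skin was taken 24 h later. The comparisons ask how FA changes the epidermal transcriptome and how far this depends on REDD1, an inhibitor of mTOR signaling encoded by Ddit4. In REDD1 KO mice, a LacZ/neo cassette stands in place of exon 2 of Ddit4 in every cell of the body. The methods describe F1 B6x129 mice, with wild-type animals bought from a breeder, and the sources do not describe them as littermates of the mutants. The sample labels instead give the strain B6D2, the posterior ear lobe as the site and controls without treatment, while their protocol names back skin and acetone.

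Sebaceous glands are lobes attached to the hair follicle, in which sebocytes fill with lipid droplets and then burst, releasing sebum through a duct into the hair canal. Their differentiation runs with the nuclear receptor PPARγ and with enzymes that desaturate, hydroxylate and esterify fatty acids. Several of these genes, among them Pparg, Cidea, Scd1 and Dgat2, also work in adipocytes. The methods describe epidermis isolated from the skin by mechanical scraping. In RNA of such a sample, fewer gland cells in it and less of a transcript per gland cell cannot be told apart.

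Krt79, Fa2h, Mgst1 and Scd1, each called in some comparison, were looked up in the RefSeq promoter table (GRCm38.p6). Its windows run from 250 bases before to 50 bases after a start site. The remaining called member was left out of this search. Of the genes looked up, Krt79 and Mgst1 had entries there. They are shown because these genes were lower together in the REDD1 KO FA arrays, and the glucocorticoid receptor half-site TGTTCT is in capitals where it occurs. Krt79 lies at chr15:101940275-101940574 (minus strand), and the 2 start sites of Mgst1 at chr6:138140277-138140576 and chr6:138141337-138141636 (both plus strand).
Krt79: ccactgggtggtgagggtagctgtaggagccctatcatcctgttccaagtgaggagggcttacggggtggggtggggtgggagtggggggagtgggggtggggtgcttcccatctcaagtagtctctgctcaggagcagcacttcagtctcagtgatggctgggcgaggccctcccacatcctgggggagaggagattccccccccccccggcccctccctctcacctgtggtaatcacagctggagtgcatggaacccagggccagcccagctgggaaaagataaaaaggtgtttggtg
Mgst1, start site 1: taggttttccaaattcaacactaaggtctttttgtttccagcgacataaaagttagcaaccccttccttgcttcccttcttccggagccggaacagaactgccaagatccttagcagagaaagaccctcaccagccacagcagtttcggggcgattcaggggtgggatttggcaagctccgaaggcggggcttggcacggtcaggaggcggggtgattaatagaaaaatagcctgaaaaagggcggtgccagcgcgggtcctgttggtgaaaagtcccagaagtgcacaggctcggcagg
Mgst1, start site 2: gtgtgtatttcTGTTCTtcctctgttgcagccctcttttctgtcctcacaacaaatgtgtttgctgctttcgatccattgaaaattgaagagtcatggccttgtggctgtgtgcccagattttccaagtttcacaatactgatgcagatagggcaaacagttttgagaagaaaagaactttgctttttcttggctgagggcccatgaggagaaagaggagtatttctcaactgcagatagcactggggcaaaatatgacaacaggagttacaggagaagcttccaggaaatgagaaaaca
Both strands were searched for TGTTCT, for the full palindromic glucocorticoid response element, which contains it, for the direct-repeat PPAR element, and for TATAAA and CCAAT. The only match was TGTTCT at the second Mgst1 start site, on the plus strand with its first base at position -239 from the start. Of 32851 promoters of the same length, 19% hold TGTTCT, 0.00913% the palindromic element, 0.0396% the PPAR element, 13.6% TATAAA and 37.4% CCAAT.

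Arrays differed in more than their labels. Keratinocyte genes were high everywhere, with Krt14 at log2 signals of 13.84 to 14.50 and Krt10 at 14.50 to 14.74. Ddit4 was at 9.16 to 11.14 on the 4 wild-type and at 7.09 to 8.35 on the 4 REDD1 KO arrays, but where its probe lies relative to exon 2 is not stated in the sources. REDD1 KO FA replicate 1 stood apart. Its summed signal over 6 skeletal muscle genes (linear scale) was 15354, against 182.6 to 1682 on the other 7 arrays, with Acta1 at a log2 signal of 12.91 against 6.08 to 9.93 and all 6 genes detected. Its mean log2 signal over 9 adipocyte genes was 6.11, against 4.93 to 5.51 elsewhere, with Adipoq at 6.67 and Lep at 6.10, while Plin1 and Fabp4 were detected on 0 of 8 arrays. The part of muscle and fat RNA in the results below was not tested, and differences that rest on the REDD1 KO FA group are also given without that array.

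Under FA, most of the measured sebaceous genes were lower in REDD1 KO than in wild-type epidermis. Of the 9 tested member probes, 6 were called lower and 0 higher (adjusted p under 0.05 from limma), against 4.02% of all tested probes called lower. The 6 were those of Krt79, Fa2h, Scd1 and Cidea and both Mgst1 probes. Of these, Mgst1-a passed the detection filter through the wild-type arrays alone, so that its call adds nothing to the count. For 7 of the 9 tested probes both REDD1 KO FA arrays lay below both wild-type FA arrays, against 26.6% of all tested probes. For 1, Dgat2, both lay above, with a log2 difference of 0.11 that was not called. Mgst1-a is among these 7, and for the same reason it adds nothing to this count either. Within REDD1 KO epidermis, FA lowered 4 member probes, those of Krt79, Fa2h, Mgst1-b and Scd1, against 2.34% of all tested probes. FA in wild-type epidermis changed 0 of them, against 6.34% of all tested probes in either direction, and 1, Mc5r, had an unadjusted p under 0.05, as did 22.7% of all tested probes. Between genotypes under vehicle, Mgst1-a alone was called lower (0.343% of all tested probes were), and nothing is read from this count because of how it passed the filter. The values of 8 of the 9 tested probes, Mgst1-a among them, were lower in REDD1 KO under vehicle, and that of Mc5r was higher. Over all 9 tested member probes, Mgst1-a and Mc5r included, the median log2 difference was -0.47, against 0.0036 over all tested probes. The 2 comparisons that hold the REDD1 KO FA arrays share them, so their values are given side by side and are not separate evidence.

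**Figure D1:**
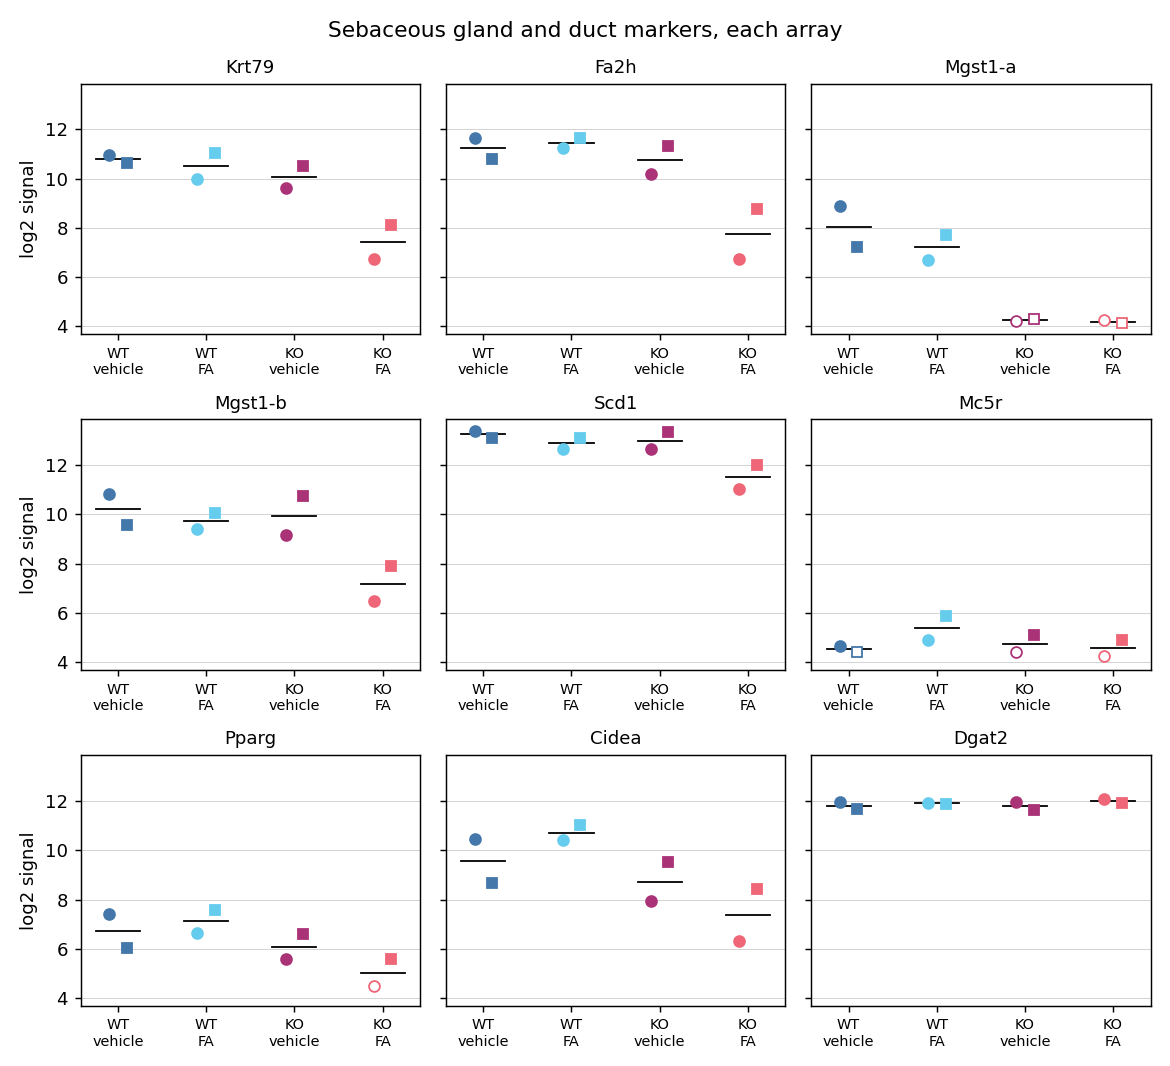
Normalized log2 signal (vertical axis) of the 9 tested probes on each of the 8 arrays, by group, with circles for replicate 1, squares for replicate 2, open symbols where the detection p is 0.05 or above, and a line at the group mean. Krt79, Fa2h, Mgst1-b and Scd1 are lowest on the 2 REDD1 KO FA arrays, Mgst1-a is open on all 4 REDD1 KO arrays, and Dgat2 stays between 11.62 and 12.09.

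Krt79, a keratin of the sebaceous duct and of the upper hair canal, had log2 signals of 10.98 and 10.65 on the wild-type vehicle arrays, 9.97 and 11.05 with FA, 9.60 and 10.52 on the REDD1 KO vehicle arrays, and 6.75 and 8.11 with FA. Both REDD1 KO FA arrays lay below the other 6, which spanned 9.60 to 11.05. FA lowered Krt79 in REDD1 KO epidermis 6.21-fold (log2 difference -2.63, SE 0.49, adjusted p = 0.0196 from limma). Its wild-type difference was -0.30, with a 95% interval of -1.40 to 0.80 and overlapping arrays. Under FA, Krt79 was 8.49-fold lower in REDD1 KO than in wild-type epidermis (log2 difference -3.09, SE 0.49, adjusted p = 0.00997). Without REDD1 KO FA replicate 1 that difference was -2.41 (adjusted p = 0.0342 from limma), and the FA difference in REDD1 KO was -1.95, no longer past the threshold (adjusted p = 0.0709).

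Fa2h adds a hydroxyl group to fatty acids of sphingolipids and, in the mouse sebaceous gland, of wax diesters. Its log2 signals were 11.65 and 10.80 (wild-type vehicle), 11.26 and 11.66 (wild-type FA), 10.18 and 11.33 (REDD1 KO vehicle), and 6.75 and 8.77 (REDD1 KO FA). The REDD1 KO FA arrays again lay below all others, and they differed by 2.03 between themselves. Under FA, Fa2h was lower in REDD1 KO than in wild-type epidermis by a log2 difference of -3.70 (SE 0.61, adjusted p = 0.0113 from limma). FA lowered it 7.95-fold in REDD1 KO (log2 difference -2.99, SE 0.61, adjusted p = 0.0276), against a wild-type difference of 0.24 (95% interval -1.13 to 1.60). Without REDD1 KO FA replicate 1 the genotype difference under FA was -2.69 (adjusted p = 0.0257 from limma) and the FA difference -1.98 (adjusted p = 0.0715).

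Scd1 is the stearoyl-CoA desaturase whose loss in asebia mice leaves sebaceous glands rudimentary. It was detected on all 8 arrays, with log2 signals of 13.40 and 13.12 (wild-type vehicle), 12.66 and 13.12 (wild-type FA), 12.67 and 13.33 (REDD1 KO vehicle), and 11.02 and 12.03 (REDD1 KO FA). The 6 other arrays lay within 12.66 to 13.40, above both REDD1 KO FA arrays. FA lowered Scd1 2.78-fold in REDD1 KO (log2 difference -1.48, SE 0.34, adjusted p = 0.0453 from limma), and under FA it was 2.57-fold lower in REDD1 KO than in wild type (-1.36, SE 0.34, adjusted p = 0.0464). Both adjusted p lie just under the threshold, and without REDD1 KO FA replicate 1 the differences were -0.97 and -0.86 (adjusted p = 0.15 and 0.148). Its paralog Scd3, a desaturase of mouse sebocytes, had log2 signals of 4.21 to 4.48 and detection p of 0.128 to 0.802, not above background on any array. The probe thus gives no comparison for Scd3.

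Mgst1, a microsomal glutathione transferase that detoxifies lipid peroxides and marks mature sebocytes in mouse skin, gave different results with its 2 probes. Mgst1-b had log2 signals of 10.82 and 9.58 (wild-type vehicle), 9.42 and 10.04 (wild-type FA), 9.16 and 10.73 (REDD1 KO vehicle), and 6.49 and 7.90 (REDD1 KO FA). Like Krt79, it was lowest on both REDD1 KO FA arrays, and its vehicle arrays of the 2 genotypes overlapped. FA lowered it in REDD1 KO 6.72-fold (log2 difference -2.75, SE 0.61, adjusted p = 0.039 from limma), and under FA it was 5.80-fold lower in REDD1 KO than in wild type (-2.54, adjusted p = 0.0414). Without REDD1 KO FA replicate 1 these became -2.04 (adjusted p = 0.148) and -1.83 (adjusted p = 0.14).

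Mgst1-a was above background on wild-type arrays only. Its log2 signals were 8.87 and 7.24 (wild-type vehicle) and 6.71 and 7.70 (wild-type FA), and 4.15 to 4.31 on the 4 REDD1 KO arrays, with detection p of 0.358 to 0.994. No REDD1 KO array was above background, and a probe that passed the filter through the wild-type arrays alone had to be lower in REDD1 KO, so the following values are a description. It was at least 10.8-fold lower in REDD1 KO under vehicle (adjusted p = 0.0096 from limma) and at least 5.82-fold lower under FA (adjusted p = 0.00989), each a lower bound set by the lowest detected signal of the arrays. Over the same vehicle arrays, Mgst1-b differed by -0.26 (95% interval -1.64 to 1.12, adjusted p = 0.962). Where each probe lies in the transcripts is not stated in the sources. The vehicle call was lost without REDD1 KO vehicle replicate 1 or without replicate 2, where 0 member probes passed.

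Cidea, a protein of lipid droplets that enlarges them by fusion, varied widely between arrays of a group. Its log2 signals were 10.45 and 8.66 (wild-type vehicle), 10.40 and 11.04 (wild-type FA), 7.93 and 9.53 (REDD1 KO vehicle), and 6.30 and 8.41 (REDD1 KO FA). Each pair of FA-treated and vehicle groups overlapped within its genotype, and under FA both REDD1 KO arrays lay below both wild-type arrays. Cidea was 10.3-fold lower in REDD1 KO than in wild type under FA (log2 difference -3.37, SE 0.78, adjusted p = 0.0369 from limma). Its FA differences were 1.17 in wild type (adjusted p = 0.416) and -1.37 in REDD1 KO (adjusted p = 0.371), opposite in sign, and neither passed the test. Without REDD1 KO FA replicate 1 the genotype difference under FA was -2.31 (adjusted p = 0.122).

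Pparg, the nuclear receptor that drives sebocyte differentiation, had log2 signals of 7.42 and 6.01 (wild-type vehicle), 6.63 and 7.59 (wild-type FA), 5.58 and 6.60 (REDD1 KO vehicle), and 4.49 and 5.58 (REDD1 KO FA). The detection p was 0.117 on REDD1 KO FA replicate 1 and 0 on the other 7 arrays. Under FA both REDD1 KO arrays were below both wild-type arrays, by a mean log2 difference of -2.08 (SE 0.55), which missed the threshold (adjusted p = 0.0538 from limma). The FA differences of 0.40 in wild type and -1.05 in REDD1 KO had overlapping arrays (adjusted p = 0.727 and 0.332). When REDD1 KO FA replicate 1 was dropped, the genotype difference under FA was -1.53 (adjusted p = 0.182) and the FA difference in REDD1 KO -0.51 (adjusted p = 0.706). Its other 2 probes were at 4.196 to 4.61 and were detected on 0 of 8 arrays.

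Mc5r, the melanocortin receptor that promotes secretion from sebaceous and other exocrine glands in mice, was close to background, with log2 signals of 4.65 and 4.42 (wild-type vehicle), 4.90 and 5.89 (wild-type FA), 4.41 and 5.09 (REDD1 KO vehicle), and 4.27 and 4.90 (REDD1 KO FA). It was detected on both wild-type FA arrays and on 1 array of each other group. Both wild-type FA arrays were above both wild-type vehicle arrays, by a mean log2 difference of 0.86 (unadjusted p = 0.0372 and adjusted p = 0.187 from limma), which is not a called change. Between genotypes under FA the difference was -0.81 (adjusted p = 0.193), and without REDD1 KO FA replicate 1 it was -0.49 (adjusted p = 0.506).

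Dgat2, which catalyses the last step of triglyceride synthesis, did not follow the others. Its log2 signals were 11.95 and 11.68 (wild-type vehicle), 11.93 and 11.88 (wild-type FA), 11.94 and 11.62 (REDD1 KO vehicle), and 12.09 and 11.94 (REDD1 KO FA). The 8 arrays spanned less than for any other tested member. Its difference between genotypes under FA was 0.11 (95% interval -0.29 to 0.51) and that of FA in REDD1 KO was 0.23 (95% interval -0.16 to 0.63), so that the intervals hold no fall of the size seen for Krt79, Fa2h, Mgst1-b or Scd1. Leaving out REDD1 KO FA replicate 1, the values were 0.04 and 0.16.

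**Figure D2:**
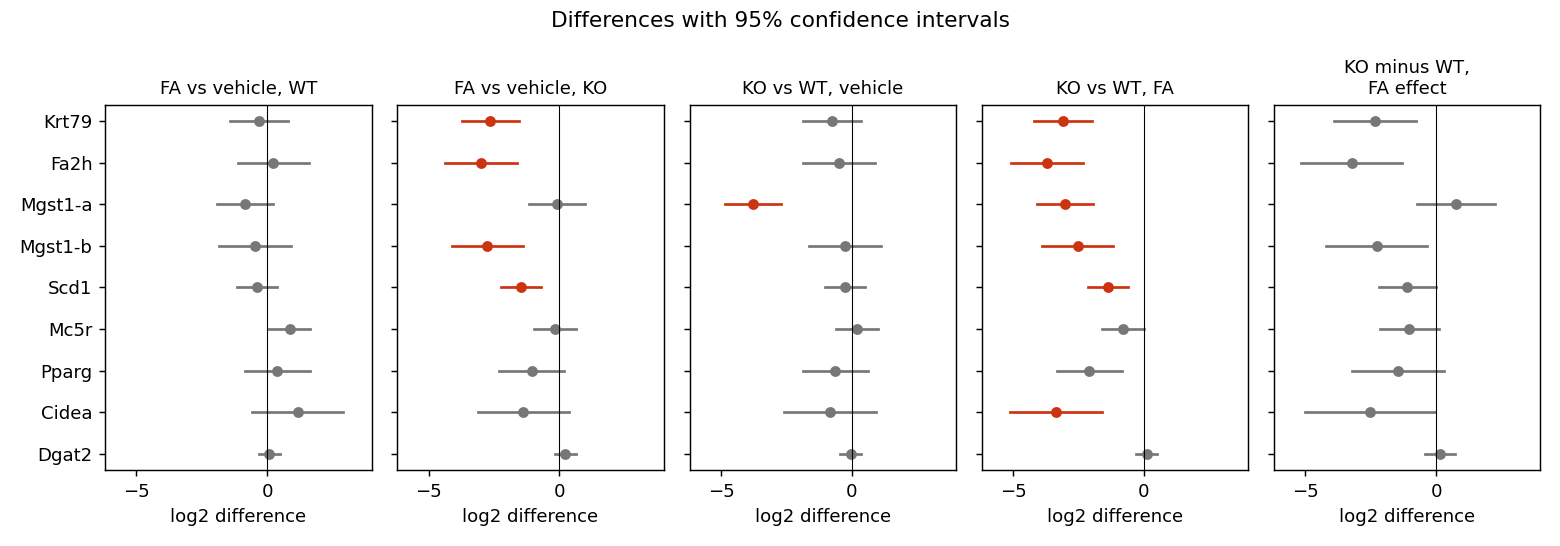
Log2 difference (horizontal axis) of each tested member probe in the 5 comparisons, as points with 95% confidence intervals from limma, in red where the adjusted p is under 0.05. FA in wild type and the genotype difference of the FA effect (last panel) hold no red point, and 6 of 9 probes are red and below 0 for REDD1 KO against wild type under FA. Mgst1-a, among these 6, passed the detection filter through the wild-type arrays alone.

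Whether the response to FA itself differed between genotypes was tested as the difference of the 2 FA effects. Of the member probes 0 passed, against 0.0305% of all tested probes, while 5 of the 9 tested had an unadjusted p under 0.05 in limma, against 9.92% of all tested probes. The values were -3.23 for Fa2h (unadjusted p = 0.00433, adjusted p = 0.35), -2.33 for Krt79 (unadjusted p = 0.00799, adjusted p = 0.363), -2.28 for Mgst1-b (adjusted p = 0.444), -2.54 for Cidea (adjusted p = 0.5) and -1.11 for Scd1 (adjusted p = 0.501). A fall with FA in REDD1 KO and not in wild type is therefore a description of the arrays and not a called difference between genotypes. With REDD1 KO FA replicate 1 left out, the values were -2.22 for Fa2h, -1.65 for Krt79, -1.57 for Mgst1-b, -1.48 for Cidea and -0.60 for Scd1, and 0 member probes passed. Without REDD1 KO FA replicate 2, which leaves the array with the muscle signal alone in its group, Fa2h alone was called (adjusted p = 0.047).

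The counts depended on single arrays. Of the 4 member probes lowered by FA in REDD1 KO, 0 remained without REDD1 KO FA replicate 1 and 0 without REDD1 KO vehicle replicate 2, and 1 without either wild-type FA array, 2 without REDD1 KO vehicle replicate 1. Of the 6 lower in REDD1 KO under FA, 3 passed without REDD1 KO FA replicate 1 (Krt79, Fa2h and Mgst1-a), 2 without wild-type FA replicate 1 and 0 without wild-type FA replicate 2. Mgst1-a passed the detection filter through the wild-type arrays alone, so its call adds nothing to the counts between genotypes under FA. REDD1 KO FA replicate 2 had the lowest muscle signal of the 8 arrays (182.6, with 2 of 6 genes detected). Its Krt79, Fa2h, Mgst1-b and Scd1 signals (8.11, 8.77, 7.90 and 12.03) were below those of all 6 arrays of the other groups. This rests on a single animal, whose array also had the lowest mean log2 signal of basal keratinocyte genes (11.40). The part of muscle RNA in these values was not tested.

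Replicates of a group differed in a shared way. Replicate 1 was above replicate 2 in the wild-type vehicle group and below it in each of the other 3 groups for 7 of the 9 tested member probes, the exceptions being Mgst1-a and Dgat2, against 7.95% of all tested probes. This order was taken from these same values, so its share is a description and not a test. The differences between replicates were large for single genes. For Cidea, replicate 2 minus replicate 1 was -1.79, 0.64, 1.59 and 2.11 on the log2 scale in the wild-type vehicle and FA groups and the REDD1 KO vehicle and FA groups, and in wild-type vehicle its size lay above 99.8% of all tested probes. For Pparg it was -1.41, 0.96, 1.03 and 1.09. The muscle list was higher in replicate 1 in all 4 groups, with mean log2 signals of 6.17 and 5.93, 7.49 and 5.99, 7.03 and 4.997, and 10.86 and 4.76, in the same order of groups. In the wild-type vehicle group the array with more muscle signal thus had more sebaceous signal, and in the other 3 groups it had less. The part of muscle RNA in this spread was not tested.

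**Figure D3:**
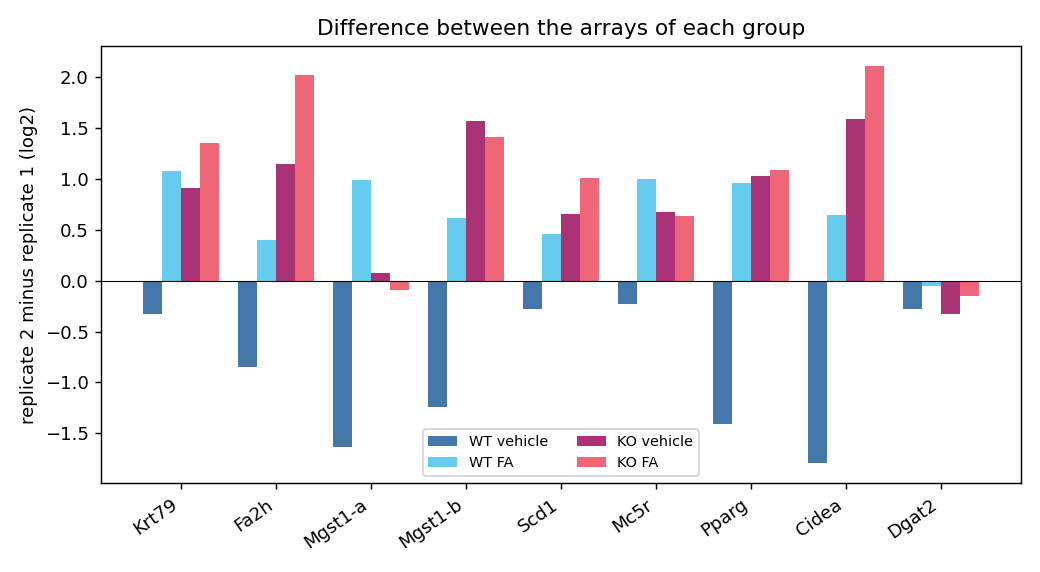
Replicate 2 minus replicate 1 (log2, vertical axis) for each tested member probe, 1 bar per group. For 7 of 9 probes the wild-type vehicle bar points down and the other 3 bars up, reaching 2.11 for Cidea and 2.03 for Fa2h in REDD1 KO FA.

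The mean log2 signal over the 9 tested probes was 10.02 and 9.13 in wild-type vehicle, 9.32 and 9.997 in wild-type FA, 8.41 and 9.23 in REDD1 KO vehicle, and 6.93 and 7.98 in REDD1 KO FA. The vehicle groups overlapped, and both REDD1 KO FA arrays lay below the other 6. Mgst1-a, above background on wild-type arrays only, is part of this mean and widens the gap between genotypes. The mean without it was not taken. Over the same arrays the mean of basal keratinocyte genes was lowest on REDD1 KO FA replicate 2 (11.40) and 11.61 to 11.91 on the others, with REDD1 KO FA replicate 1 at 11.77. That of suprabasal keratinocyte genes was 10.28 and 10.14 on the REDD1 KO FA arrays and 10.47 to 10.89 on the other 6, so that it too was lowest there, by less. The part of this in the sebaceous values was not tested.

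**Figure D4:**
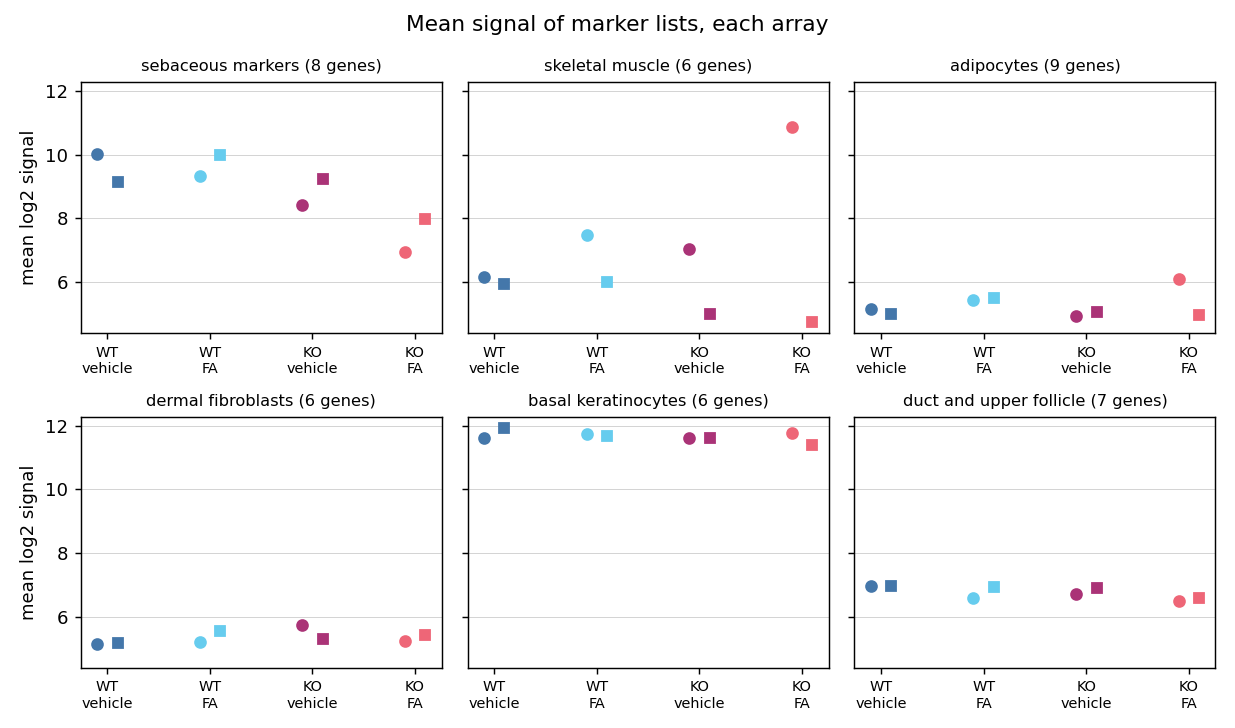
Mean log2 signal (vertical axis) of the sebaceous markers (9 tested probes of 8 genes) and of 5 marker lists on each array, with circles for replicate 1 and squares for replicate 2. The sebaceous markers, which include Mgst1-a, are lowest on the REDD1 KO FA arrays (6.93 and 7.98), and the muscle list is at 10.86 on REDD1 KO FA replicate 1. Basal keratinocyte genes are at 11.40 to 11.91, lowest on REDD1 KO FA replicate 2.

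Other genes of sebum lipid synthesis and sebocytes were taken as a list of 20, of which 15 were tested. Under FA, 5 of the 15 were lower in REDD1 KO than in wild type and 0 higher, against 4.02% of all tested probes called lower. The median log2 difference was -0.51, against 0.02 over all tested probes. With FA, 3 of the 15 rose in wild-type epidermis (limma, adjusted p under 0.05), against 6.34% of all tested probes changed in either direction. There 8 had an unadjusted p under 0.05, against 22.7% of all tested probes. In REDD1 KO 0 changed with FA, and 7 had an unadjusted p under 0.05. In each genotype some of these were lower and some higher. Under vehicle 0 differed between genotypes and 1 had an unadjusted p under 0.05.

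Elovl3, an elongase of very long chain fatty acids, was at 6.86 and 6.38 (wild-type vehicle), 8.78 and 9.49 (wild-type FA), 5.62 and 7.01 (REDD1 KO vehicle), and 4.46 and 5.16 (REDD1 KO FA). It rose with FA in wild type by a log2 difference of 2.52 (adjusted p = 0.0135 from limma) and was lower in REDD1 KO under FA by -4.32 (adjusted p = 0.00194). Plin2, a coat protein of lipid droplets, was lower in REDD1 KO under FA (-2.70, adjusted p = 0.00703). Plin5, another droplet protein, and Far1, which makes fatty alcohols for wax esters, rose with FA in wild type by 2.32 and 1.81 (adjusted p = 0.00366 and 0.0237). Under FA, Plin5 was lower in REDD1 KO by -1.74 (adjusted p = 0.0118) and Far1 at least 4.07-fold lower (adjusted p = 0.0114), below background in REDD1 KO. The fifth was Fasn, fatty acid synthase, at least 1.55-fold lower (adjusted p = 0.0317), named after its values were seen. When REDD1 KO FA replicate 1 was dropped, 4 of these 5 were called (Elovl3 -3.97, Plin2 -2.81, Far1 -2.29 and Plin5 -1.63), and Fasn was not (-1.06, adjusted p = 0.0617).

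Genes of the duct, the isthmus and the upper hair follicle gave 5 tested of 7. Krt17, a follicle keratin, fell with FA in both genotypes (log2 differences -0.66 and -0.79, adjusted p = 0.0458 and 0.0296 from limma). Plet1, a surface protein of the follicle junction, was at least 1.49-fold lower in REDD1 KO than in wild type under FA (adjusted p = 0.0125), but it was detected on 3 wild-type arrays and on 0 REDD1 KO arrays, so that it passed the filter only through the group where it is high and this value is a description. Leaving out REDD1 KO FA replicate 1, Krt17 was no longer called in REDD1 KO (-0.89, adjusted p = 0.0583). These were the only calls in this list over all arrays, with 0 under vehicle, where 1 had an unadjusted p under 0.05. Gata6, a transcription factor of the duct, had log2 signals of 6.56, 6.53, 5.73, 7.11, 6.21 and 6.23 on the wild-type vehicle, wild-type FA and REDD1 KO vehicle arrays, and 4.69 and 5.63 on the REDD1 KO FA arrays. Its difference between genotypes under FA was -1.27 (adjusted p = 0.1), and it is named after its values were seen. In that comparison Lrig1 and Sox9 of this list were higher in REDD1 KO (0.41 and 0.24, adjusted p = 0.443 and 0.422 from limma). Krt17 was at -0.18 (adjusted p = 0.54), so the list did not move in 1 direction.

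Of 13 relatives of the members, 4 were tested. Dgat1, which catalyses the same step as Dgat2, was lower in REDD1 KO under FA (log2 difference -1.55, adjusted p = 0.0367 from limma), and was not called without REDD1 KO FA replicate 1 (-1.30, adjusted p = 0.122). Mgst3 fell with FA in both genotypes (-0.69 and -0.93, adjusted p = 0.0477 and 0.0183), with -1.08 in REDD1 KO without that array (adjusted p = 0.0328), and Scd2 fell with FA in wild type (-0.89, adjusted p = 0.0336). The melanocortin receptors Mc1r, Mc2r, Mc3r and Mc4r and the receptor gene Ppard were detected on 0 of 8 arrays, and Ppara on 1.

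Lists for other cell types were set beside these. Of 6 tested genes each, 0 basal keratinocyte and 0 muscle genes passed in any comparison in limma, with 2 and 0 at most at an unadjusted p under 0.05, nor did any of 5 dermal fibroblast genes, with 2 at most. Of 5 tested adipocyte genes, Lpl, which adipocytes share with other cells, was lower in REDD1 KO under FA (log2 difference -2.10, adjusted p = 0.0248). With REDD1 KO FA replicate 1 left out, Lpl was at -2.84 (adjusted p = 0.00582) and the basal keratin Krt5 was also called lower in REDD1 KO under FA.

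Some suprabasal keratinocyte genes were also called lower in the 2 comparisons that hold the REDD1 KO FA arrays, while Ivl rose with FA in both genotypes. Of 6 tested, FA lowered 2 in REDD1 KO, Krt1 (log2 difference -1.41, adjusted p = 0.0495 from limma) and Flg2 (-0.77, adjusted p = 0.0297), and raised 1, Ivl (0.77, adjusted p = 0.0231), with 4 at an unadjusted p under 0.05. In wild type FA raised Ivl (1.19, adjusted p = 0.00389) and lowered 0. Under FA 3 were lower in REDD1 KO than in wild type, Krt1 (-2.11, adjusted p = 0.00997), Dsc1 (-1.08, adjusted p = 0.0211) and Flg2 (-0.82, adjusted p = 0.0197). When REDD1 KO FA replicate 1 was dropped, Krt1 alone was called in each of the 2 comparisons (-1.87 and -2.57). Of 3 bulge genes Krt15 was higher in REDD1 KO under FA (0.79, adjusted p = 0.0475), and it was not called without that array (0.60, adjusted p = 0.162). Of 3 Langerhans cell genes, 2 fell with FA in wild type and 3 in REDD1 KO (2 without that array), and 0 differed between genotypes, with 0 at an unadjusted p under 0.05.

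The genes most like each member over the 8 arrays were ranked by Pearson's r of the log2 signals, as a description in which the 8 points share 4 groups and the arrays named above. Krt79 was most like Dhrs7 (r = 0.982), then Fa2h and Scd1. Fa2h was most like Slc25a1, the mitochondrial citrate carrier (0.980), then Ptk7 and Acox2. Scd1 was most like Mgst1-b (0.983), then Msmo1, an enzyme of sterol synthesis, and Serpina3b. Mgst1-b was most like Cdr2 (0.986), then Scd1 and Ptk7, while Mgst1-a was most like Ackr4 (0.986), Tmem87a and Nudt6. The 2 Mgst1 probes thus had no neighbour in common among these.

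Pparg was most like Ugt1a10 (0.993), then Cers4, a ceramide synthase, and Hacd2, a dehydratase of fatty acid elongation. Cidea was most like Hacd2 as well (0.992), then Elovl5, an elongase, and Pnpla5. Mc5r was most like Pold4 (0.967), Vnn3 and Crygn, and Dgat2 most like Exosc1 (0.952), Ipmk and Cbs.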

How the data were processed

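Epidermal RNA of 8 mice, 2 per group, was hybridized to Illumina MouseRef-8 v2.0 BeadChips. The authors deposited bead intensity values of 25697 probes and 832 control lines without background subtraction or normalization, a detection p-value per probe and array, and log2 values made with the neqc function of limma (background correction and quantile normalization with control probes). The sources do not state their limma version. The deposited log2 values were used as they stand. They were rebuilt from the intensities with an offset of 16, 798 controls taken as negative and 34 as other (largest difference 5e-09), after 2 broken text lines were dropped. Symbols came from the platform annotation, updated by entrez number (23962 probes) or accession (9), with 7 kept.

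Probes with a detection p under 0.05 on at least 2 of 8 arrays were tested, 13131 in all. All 8 arrays entered a linear model with a mean for each group in limma 3.58.1 in R 4.3.3 (lmFit and eBayes, 4 residual and 5.08 prior degrees of freedom, two-sided). Benjamini-Hochberg adjustment ran over the 13131 probes within a comparison, and an adjusted p under 0.05 is called. The script was tested on simulated data. A fold against a group below background on both arrays is a lower bound, the brighter mean against the dim arrays, each raised to its lowest detected signal where it lay under it. A listed gene is represented by its tested probe with the highest mean signal.

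Named are all member probes, Ddit4, up to 4 called genes per list with the largest differences, and the 3 probes most like each member. Members and lists were chosen with earlier results of these data known. Median intensity per array was 95.9 to 107, against 90.5 to 99.3 for negative controls, 44.5% to 46.7% of probes were detected, and replicates correlated at r of 0.976 to 0.990. The number of arrays limits the precision. Alternatives were the rebuilt values, omitting background correction, raising the offset to 50, median centring, no filter, a filter on all 8 arrays, only the arrays compared, a replicate block, trended and robust eBayes, and leaving out each array. Plots used Python 3.11.15 and matplotlib 3.10.9.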

Additional observations from a re-analysis of the deposited data

How the results depend on the processing

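Of 741 values of single member probes under the alternatives, 639 kept their direction and side of the threshold, 76 lost their call, 5 gained 1 and 21 changed sign, 0 of these among called values. Member probes lowered by FA in REDD1 KO (4) numbered 0 with no background correction, 0 without a filter on dim probes, 0 with only the arrays compared, 0 with trended and robust eBayes and 2 with an offset of 50, and 0 to 4 leaving out single arrays. Those lower in REDD1 KO under FA (6) numbered 2 with no background correction, 1 without a filter and 1 with trended and robust eBayes, and 0 to 6 leaving out single arrays. The single call under vehicle (Mgst1-a) gave 0 with no background correction, an offset of 50, no filter, detection on all 8 arrays (which removes the probe) or trended and robust eBayes, and 0 to 1 leaving out single arrays. The genotype difference of the FA effect gave 0 to 1 leaving out single arrays, and FA in wild type 0 under all alternatives. Apart from the removal of the probe, the cause was not tested. Mgst1-a is among the 6 lower under FA and passed the filter through the wild-type arrays alone, so it adds nothing to that count. Median centring added Pparg under FA (7 probes lower) and moved the median of all probes by -0.172 for FA in REDD1 KO and by -0.0888 in wild type. It turned the sign of Dgat2 for FA in wild type (-0.0011) and between genotypes under vehicle (0.0385).

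Values that changed sign when single arrays were left out were, for FA in wild type, Krt79 (-0.84 to 0.24), Fa2h (-0.19 to 0.66), Mgst1-b (-1.09 to 0.15), Pparg (-0.31 to 1.10) and Dgat2 (-0.0509 to 0.22), and for FA in REDD1 KO Mc5r (-0.51 to 0.17). Between genotypes under vehicle they were Fa2h (-1.05 to 0.10), Mgst1-b (-1.05 to 0.53), Scd1 (-0.58 to 0.0751), Mc5r (-0.12 to 0.56), Pparg (-1.33 to 0.0756), Cidea (-1.72 to 0.0720) and Dgat2 (-0.20 to 0.13). For the genotype difference of the FA effect they were Mgst1-a (-0.0489 to 1.58) and Dgat2 (-0.0138 to 0.31). A fit that leaves a group with 1 array assumes that this array varies like the others. With the replicate number as a block, the counts of called member probes were the same in all 5 comparisons (4 with FA in REDD1 KO, 6 between genotypes under FA, 1 under vehicle, 0 and 0). Deviations of same-numbered arrays correlated at 0.215 to 0.252 for the 3 pairs of groups without wild-type vehicle and at -0.107 to -0.0298 for the 3 pairs with it, and the labels give no shared animal, litter or day, so the numbers were not taken to pair the arrays. Leaving out REDD1 KO FA replicate 1 for the listed genes was added after seeing the data. Signals near background limit Mc5r, Scd3, Mgst1-a and Pparg.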
